A study of Mus musculus with 360 samples.

Results

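The liver transcriptome was measured in female B6D2F1/Crl (BDF-1) hybrid mice, 9 weeks old, exposed to 1,2-dichlorobenzene at 30 ppm, and compared with concurrent animals at 0 ppm, all on study day 5. The members are the libraries labelled as left liver lobe, 1,2-dichlorobenzene and used in the submitters' analysis: 5 animals at 30 ppm (numbers 301 to 305) and 9 controls at 0 ppm, together 14 of the 360 libraries of the series. One more control library carries the label not used, for low depth. The other liver groups compared here were 4 animals at 10 ppm, 5 at 100 ppm and 6 at 250 ppm of the same compound. They had the same strain, sex and age. The statistical fit also held 2 animals at 1 ppm and the used livers of the 1,4-dichlorobenzene series at 0 to 400 ppm. All 61 used liver libraries, in 12 groups, thus set the estimate of spread behind each liver test. The route of exposure and the time of day of tissue collection are not given in the sources used here. The assay, TempO-Seq with the mouse S1500+ panel, counts ligated pairs of detector probes and covers a chosen panel of genes rather than the whole transcriptome.

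1,2-Dichlorobenzene is a chlorinated aromatic solvent. In the liver it is oxidised by cytochrome P450 enzymes to a reactive epoxide, which glutathione transferases join to glutathione and which can otherwise rearrange to dichlorophenols. Foreign compounds raise such enzymes through the nuclear receptors CAR and PXR, through the aryl hydrocarbon receptor (AhR) and through NRF2, which responds to electrophiles. Many hepatic P450 and conjugation genes also cycle daily under the PAR bZIP factors Dbp and Hlf, which bind the D-box and compete there with the repressor Nfil3.

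Total deposited counts were 14116843 to 20897321 per control library and 16051251 to 21632619 per 30 ppm library. The 12 probes for hepatocyte markers summed to 249100 to 379200 CPM (counts scaled to the size of each library) in the controls and 299300 to 342600 CPM at 30 ppm. Of 14 pancreas probes on the panel, those for Ins2, Reg1, Prss1, Prss2 and Try4 were at 0 in all 14 libraries. The 3 pancreas probes that were tested, among them Amy1, summed to 78.46 to 282.9 CPM in the controls. At 30 ppm they summed to 131.1 to 351.5 CPM, and none was called. Control animal 4 stood apart from the other 8 controls: its acute phase transcript Saa1 was at 7972 CPM against 181 to 527 CPM in the others, and its summed Kupffer cell and macrophage markers were the highest of all at 3627 CPM. Results that rest on it are therefore given with and without that animal. Since these are bulk samples, fewer cells of a type and less RNA per cell cannot be told apart.

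Promoters of 5 genes are shown as a description, and no expression result below rests on them. They come from RefSeq on GRCm38.p6 and reach from 250 bases before the transcription start to 50 after it, of which 287 aligned bases are printed for the first pair. Gsta1 (chr9:78230419-78230705, plus strand) and Gm3776 (chr9:78256892-78257178, plus strand) are neighbouring alpha class glutathione transferase genes, and they are shown because theirs are the only probes that differed between 30 and 10 ppm. Their aligned promoters were 99% identical, with 3 mismatched bases in capitals:
Gsta1: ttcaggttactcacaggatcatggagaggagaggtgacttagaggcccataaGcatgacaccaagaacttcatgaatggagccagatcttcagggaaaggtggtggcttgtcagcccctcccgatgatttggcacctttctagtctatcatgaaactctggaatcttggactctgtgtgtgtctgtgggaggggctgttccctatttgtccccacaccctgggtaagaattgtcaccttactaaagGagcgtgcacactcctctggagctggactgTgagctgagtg
Gm3776: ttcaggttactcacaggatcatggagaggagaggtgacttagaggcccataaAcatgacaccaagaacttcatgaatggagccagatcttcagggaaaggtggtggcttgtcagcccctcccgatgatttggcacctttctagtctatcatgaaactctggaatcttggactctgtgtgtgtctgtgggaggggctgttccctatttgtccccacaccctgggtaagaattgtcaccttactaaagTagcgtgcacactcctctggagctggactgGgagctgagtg
Sequences this alike make reads of the 2 transcripts hard to tell apart where a probe site is also shared, and the probe sequences were not used here.

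The interferon genes Isg15 (chr4:156200769-156201068, minus strand) and Cxcl10 (chr5:92348840-92349139, minus strand) are shown for the group that was lower at 30 ppm. Capitals mark the interferon-stimulated response element, searched on both strands with its central pair of bases free. Isg15 held 3 matches, which overlap each other, and Cxcl10 held 1:
Isg15: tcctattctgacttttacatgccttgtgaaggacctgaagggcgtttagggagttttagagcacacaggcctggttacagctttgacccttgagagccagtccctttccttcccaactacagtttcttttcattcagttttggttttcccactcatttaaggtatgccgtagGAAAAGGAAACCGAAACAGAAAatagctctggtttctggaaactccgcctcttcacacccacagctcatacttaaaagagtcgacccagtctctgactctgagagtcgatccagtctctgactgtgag
Cxcl10: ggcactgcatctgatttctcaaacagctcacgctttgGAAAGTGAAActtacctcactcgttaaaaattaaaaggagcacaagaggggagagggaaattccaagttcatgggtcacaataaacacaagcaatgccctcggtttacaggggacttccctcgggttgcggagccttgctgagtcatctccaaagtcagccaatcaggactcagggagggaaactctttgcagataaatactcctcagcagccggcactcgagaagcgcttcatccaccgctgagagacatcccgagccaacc
This motif stood in 8 of the 14 interferon genes that were lower and had a promoter in the table (57.1%), against 3.81% of the 1731 tested genes with a promoter and 3.49% of all 27025 promoters. These interferon genes were listed for their known induction by interferon, so the share describes the list and says nothing of a factor's binding.

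The P450 gene Cyp2a5 (chr7:26835089-26835388, plus strand) is shown for its D-box, searched as TTATGNAA on both strands. Capitals mark the 1 match, which begins 71 bases before the start:
Cyp2a5: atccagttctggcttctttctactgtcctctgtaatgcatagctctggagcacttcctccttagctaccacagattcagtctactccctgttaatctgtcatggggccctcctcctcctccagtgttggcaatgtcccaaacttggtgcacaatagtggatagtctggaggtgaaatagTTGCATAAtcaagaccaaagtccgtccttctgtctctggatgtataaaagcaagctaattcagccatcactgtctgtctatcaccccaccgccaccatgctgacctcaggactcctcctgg
The D-box stood in 3.45% of the promoters of genes higher at 30 ppm and 2.78% of those of genes lower, against 2.02% of the promoters of tested genes and 3.52% of all 27025 promoters. The antioxidant response element bound by NRF2, searched as TGACNNNGC, matched 1 of the 7 promoters of the glutathione transferase genes that rose, against 14% of tested genes and 12.5% of all promoters. No match says only that these letters are not in this window.

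At 30 ppm, 304 of 2601 tested probes (11.7%), for 298 genes, differed from 0 ppm in edgeR's quasi-likelihood test at an adjusted p under 0.05. Of these, 159 probes were higher (6.11% of those tested) and the rest lower (5.57%), and the median log2 change of all probes was -0.04. Changes were mostly modest: 19 called probes rose by more than 1 on the log2 scale and 44 fell by more than 1. The 5 exposed animals lay above all 9 controls for 49 probes (1.88%) and below all 9 for 37 probes (1.42%). With the 11 liver libraries that the submitters had set aside for depth or as outliers added to the fit, 106 probes were called (4.21%). Of these libraries only control animal 9 belongs to the compared groups, and the others enter through the shared fit. The fit of 1,2-dichlorobenzene livers alone called 233 probes (9.19%), and that of the 14 libraries alone called 208 (9.08%).

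The plot of gene lists sets each list against this background. Xenobiotic lists lay to the right, with 17 of 39 phase 2 and other xenobiotic enzyme probes higher. So were 20 of 42 CAR and PXR target probes and 12 of 34 NRF2 target probes. These counts share probes. Gsta1, Gsta2, Gsta3, Gstm2, Gstm3 and Gstp1 count as CAR and PXR targets, NRF2 targets and glutathione transferases. Por, Ces2c, Ephx1, Aldh1a1, Ces1g and Ugt2b36 count as both CAR and PXR targets and phase 2 enzymes. Interferon, antigen presentation and macrophage lists lay to the left, with 19 of 29, 4 of 7 and 6 of 15 probes lower. Cell cycle, proteasome and stellate cell lists had at most 1 probe called.

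**Figure D1:**
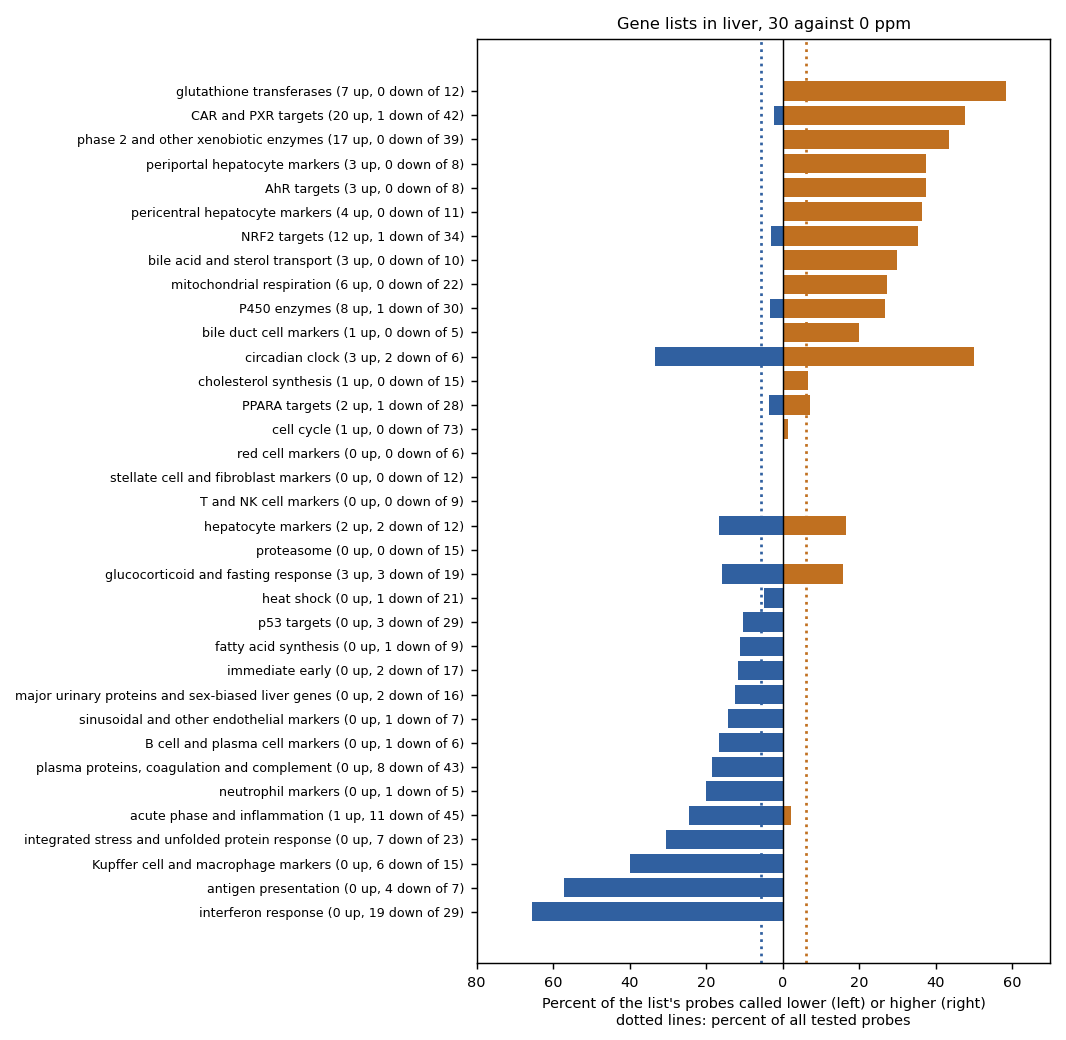
Percent of each list's tested probes called lower (blue, left) or higher (orange, right) at 30 against 0 ppm in liver; labels give the counts, and dotted lines the percent of all tested probes, 5.57% lower and 6.11% higher. Glutathione transferases stood at 7 of 12 higher and none lower, interferon genes at 19 of 29 lower and none higher.

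Glutathione transferases, the enzymes that join electrophiles to glutathione, rose as a family: 7 of 12 probes were higher and none lower, and the list's median log2 change was 1.05 against -0.04 for all probes. Gsta1 had the largest rise of the family. Its level was 10.2 CPM at the lowest, 30 at the median and 49.9 at the highest of the 9 controls, and 155.4, 105, 331, 272 and 248 CPM in animals 301 to 305. Every exposed animal therefore lay above every control, with animal 302 the lowest of the 5. The log2 change was 2.72 ± 0.32 (SE, 9 against 5 animals, edgeR adjusted p = 2.18e-08).

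Gm3776, the neighbouring alpha class gene, followed the same order of animals. Its controls ran from 10.4 to 48.6 CPM with a median of 34.6, and the exposed animals were at 124.4, 87.8, 239.9, 217 and 206 CPM. The log2 change was 2.40 ± 0.30 (edgeR adjusted p = 7.54e-08). Gsta2, also of the alpha class, lay at 115.5, 67.5, 199, 171 and 171 CPM against 6.97 to 49.2 CPM in the controls, a log2 change of 2.30 ± 0.32 (edgeR adjusted p = 1.2e-06). These 3 probes thus had the same lowest animal, 302, and the same highest, 303, and none overlapped its controls.

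The mu class genes rose by less than those 3 and from a narrower control range. Gstm2 was at 335, 335, 475, 363 and 321 CPM in the exposed animals and at 153.2 to 205 CPM in the controls, a log2 change of 1.06 ± 0.17 (edgeR adjusted p = 1.09e-05). Gstm3 was at 76.1, 70, 79.3, 67 and 115.3 CPM against 22.8 to 48.5 CPM, a log2 change of 1.23 ± 0.19 (edgeR adjusted p = 6.88e-06). Gstp1, the pi class enzyme, reached 3022, 2729, 1662, 2241 and 3319 CPM against 845 to 1625 CPM, a log2 change of 1.03 ± 0.19 (edgeR adjusted p = 9.01e-05). None of these 3 overlapped the controls, although animal 303, the highest for Gstm2, Gsta1, Gm3776 and Gsta2, was the lowest for Gstp1. The seventh, Gsta3, also of the alpha class, outside the naming rule and named after its values were seen, had a log2 change of 0.74 ± 0.16; its highest animal was 305 and 2 exposed animals lay inside the control range. With the libraries set aside by the submitters added, 4 probes of the family stayed called, and Gm3776 did not (adjusted p = 0.574).

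Among P450 enzymes, 8 of 30 probes were higher and 1 lower, with a median log2 change of 0.34. Cyp2a5, which hydroxylates coumarin and nicotine, rose most. Its controls ran from 517 to 1249 CPM with a median of 849, and the exposed animals were at 2928, 1129.6, 3571, 5087 and 6732 CPM. Animal 302 lay within the control range and the other 4 above it, for a log2 change of 2.09 ± 0.29 (edgeR adjusted p = 1.2e-06).

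The Cyp2c enzymes rose in every exposed animal. Cyp2c55, a classic CAR and PXR target, was at 37.4, 32, 37.8, 37.5 and 39.7 CPM against 4.66 to 22.5 CPM in the controls, a log2 change of 1.34 ± 0.28 (edgeR adjusted p = 0.000663). Cyp2c29 was at 24417 to 34826 CPM against 9252 to 22092 CPM, a log2 change of 0.96 ± 0.17 (edgeR adjusted p = 9.06e-05). Cyp2c54 rose by 0.61 ± 0.14 and also had no overlap. Smaller rises were called for Cyp2f2 (log2 change 0.32 ± 0.09), Cyp3a11 (0.34 ± 0.11) and Cyp2e1 (0.42 ± 0.14), the P450 best known for oxidising small solvents. The last 2 lie near the threshold. Cyp3a11 lost its call without control animal 4, 5, 8 or 10 or exposed animal 301, 304 or 305 (adjusted p 0.0568 to 0.189), and Cyp2e1 without control animal 3, 4, 5, 8 or 10 or exposed animal 301, 302, 304 or 305 (0.0517 to 0.203). Cyp2f2 lost it without exposed animal 304 (adjusted p = 0.0786), when 5 P450 probes were higher.

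Cyp2b10, the standard marker of CAR activation, did not pass. Its exposed animals were at 66.5, 76, 119.5, 86 and 67.8 CPM and its controls at 28.9 to 82.5 CPM, a log2 change of 0.47 ± 0.24 (edgeR adjusted p = 0.211). The AhR markers did not pass either: Cyp1a1 was at or under 1.24 CPM in every one of the 14 animals, with a log2 change of -0.99 ± 0.58 (adjusted p = 0.303), and Cyp1a2 had a log2 change of 0.26 ± 0.09 (adjusted p = 0.0641). Cyp1a2 did pass without control animal 5, 6 or 8 or exposed animal 302 (adjusted p 0.0118 to 0.0444). Of the 8 AhR target probes, 3 were higher: Ugt1a6b, Ugt1a6a and Nqo1. Ugt1a6a and Nqo1 also count in the conjugation and NRF2 lists, and Ugt1a6b in neither. Cyp3a16, the 1 P450 probe that fell, ranged from 0.0562 to 15.2 CPM among the controls and from 0 to 0.299 CPM at 30 ppm, so only 1 exposed animal lay below all controls.

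Partners of the P450s rose with them. Por, the reductase that passes electrons to all microsomal P450s, was at 229, 201, 216, 258 and 334 CPM against 89.8 to 144.6 CPM in the controls. The groups did not overlap, and the log2 change of 1.04 ± 0.12 had the joint lowest adjusted p of the comparison (edgeR adjusted p = 2.03e-08). Alas1, the first enzyme of heme synthesis, was at 5.63, 7.35, 5.02, 8.17 and 21.7 CPM against 1.49 to 5.94 CPM, a log2 change of 1.66 ± 0.42 (adjusted p = 0.00511), with 2 exposed animals inside the control range and animal 305 far above the rest. Without animal 305 its log2 change was 1.11 (adjusted p = 0.105). Cyp7a1, the rate-limiting enzyme of bile acid synthesis, was at 105 to 212 CPM against a wide control range of 16.4 to 119.5 CPM, with 2 exposed animals inside it, a log2 change of 1.56 ± 0.38 (adjusted p = 0.00376).

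**Figure D2:**
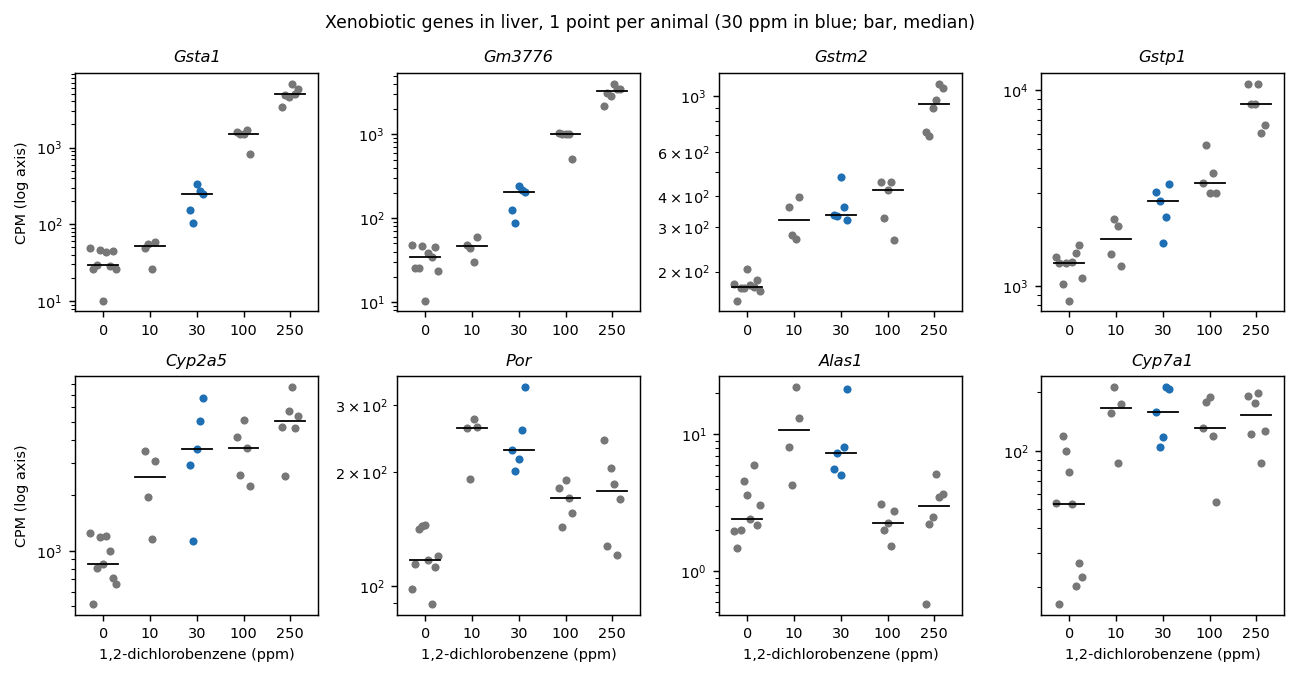
CPM (log axis) of 8 xenobiotic genes in each liver at 0, 10, 30, 100 and 250 ppm; each point is 1 animal, 30 ppm is in blue and bars are medians. Gsta1 and Gm3776 at 30 ppm lie between 10 and 100 ppm without touching either, whereas Por and Alas1 are as high at 10 ppm as at 30 ppm.

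Conjugation and other phase 2 enzymes moved in 1 direction, with 17 of 39 probes higher and none lower (median log2 change 0.31). Ces2c, a carboxylesterase, was at 143.5, 151.4, 131.7, 175 and 157 CPM against 61.4 to 106.3 CPM in the controls, a log2 change of 0.87 ± 0.14 (edgeR adjusted p = 1.34e-05). Sult1b1, a phenol sulfotransferase, was at 192, 192, 174, 206 and 219 CPM against 109.9 to 162 CPM, a log2 change of 0.58 ± 0.08 (adjusted p = 1.28e-06). Neither overlapped the controls. The glucuronosyltransferases Ugt2b36 (0.44 ± 0.08) and Ugt1a6b (0.62 ± 0.11) and the methyltransferase Inmt (1.13 ± 0.19) also rose with no overlap. Ugt1a6b is not among the 17 and was counted as an AhR target only.

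The NRF2 list was split between its members. Of 34 probes 12 rose and 1 fell, and 6 of the 12 that rose are glutathione transferases already described. Nqo1, the quinone reductase, rose by 0.57 ± 0.16 (edgeR adjusted p = 0.0105), from 24 to 34.8 CPM in the controls to 38, 32.5, 50.3, 45.8 and 50.9 CPM, and Ephx1, the microsomal epoxide hydrolase, by 0.48 ± 0.09 (adjusted p = 0.000179). Without exposed animal 305 the adjusted p of Nqo1 was 0.0514. Other standard targets did not pass: the log2 change was 0.15 ± 0.18 for Cbr3, a carbonyl reductase, and -0.26 ± 0.14 for Gclc, the first enzyme of glutathione synthesis. The efflux pump Abcc4 was at 0.47 ± 0.48 (adjusted p = 0.592).

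Markers of liver zones moved beside these lists. The 11 pericentral probes summed to 28450 to 48890 CPM in the controls and 40330 to 64990 CPM at 30 ppm, and the 8 periportal probes to 36320 to 49380 and 42810 to 68870 CPM, with 4 of 11 and 3 of 8 called higher and none lower. These include P450 genes described above, and their part in the P450 result was not tested.

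Clock output genes gave the largest rise of the comparison. Dbp was at 3.92, 26 and 95.2 CPM at the lowest, median and highest control, and at 249, 90.9, 268, 359 and 422 CPM in the exposed animals. Animal 302 lay within the control range and the others above it, for a log2 change of 3.18 ± 0.76 (edgeR adjusted p = 0.00283). Hlf, its paralog, was at 11.5, 7.67, 9.97, 19.8 and 49 CPM against 2.58 to 4.99 CPM, a log2 change of 2.31 ± 0.33 with no overlap (adjusted p = 1.28e-06).

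Of the repressors on the same list, Nfil3 and Cry1 were lower. Nfil3 was at 28.2, 49.8, 35.7, 48.9 and 33.3 CPM against 70.2 to 107.7 CPM, a log2 change of -1.12 ± 0.19 with no overlap (edgeR adjusted p = 2.74e-05). Cry1 had a log2 change of -0.88 ± 0.23 (adjusted p = 0.00622), and its ranges overlapped. Bhlhe40, another repressor of the clock loop, was higher, by 1.01 ± 0.34 (adjusted p = 0.0393). It lost its call without control animal 1, 2, 3, 4 or 5 or exposed animal 301, 303, 304 or 305 (adjusted p 0.0565 to 0.216), and its log2 change was -0.18 with Dbp as a covariate (adjusted p = 0.783). With 5 of 6 clock probes called, 3 higher (Dbp, Hlf and Bhlhe40) and 2 lower, this was the list with the largest share called among those of at least 5 probes.

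Cdkn1a, which encodes the cell cycle inhibitor p21, fell more than any other gene whose groups did not overlap. Its controls were at 9.55, 26.3 and 39.6 CPM at the lowest, median and highest, and the exposed animals at 0.859, 1.71, 2.81, 1.45 and 0.902 CPM. The mean was 15.3-fold lower at 30 ppm, and the log2 change was -3.93 ± 0.46 (edgeR adjusted p = 2.03e-08). On the p53 list 3 of 29 probes were lower, none higher, and the list's median log2 change was -0.15. Without exposed animal 301 that count was 1. Foxo3, a forkhead factor of the fasting response, rose by 0.68 ± 0.10 with no overlap (adjusted p = 1.71e-06).

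The differences of Dbp, Hlf and Cdkn1a were not limited to the liver of the exposed animals. Kidney (3 exposed, 5 controls), lung, heart and ovary (5 and 10 each) of the same study groups had 0.696%, 4.57%, 2.04% and 0% of their tested probes called at 30 ppm. Dbp rose there by 2.34 ± 0.50 on the log2 scale in kidney, 2.67 ± 0.42 in lung and 2.29 ± 0.34 in heart, and in ovary its log2 change was 0.88 ± 0.22 (edgeR adjusted p = 0.0685). Hlf rose by 1.01 ± 0.18, 1.55 ± 0.25 and 1.06 ± 0.18 in the same order, with 0.92 ± 0.23 in ovary (adjusted p = 0.0685). Cdkn1a fell by 1.74 ± 0.36 in kidney, 1.16 ± 0.19 in lung and 1.89 ± 0.27 in heart, with a log2 change of -1.39 ± 0.39 in ovary (adjusted p = 0.0799). The clock gene Cry1, lower in liver, went the other way in kidney (log2 change 0.815) and ovary (0.235). In both, every exposed animal lay above the control mean of its tissue.

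Xenobiotic genes were more uneven across the tissues. Gsta1 rose in kidney (log2 change 1.60 ± 0.28) and lung (1.41 ± 0.24), and Cyp2a5 likewise (1.14 ± 0.24 and 1.61 ± 0.40). In heart Gsta1 was at 0.52 ± 0.27 (edgeR adjusted p = 0.354). The differences between tissues were not tested.

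**Figure D3:**
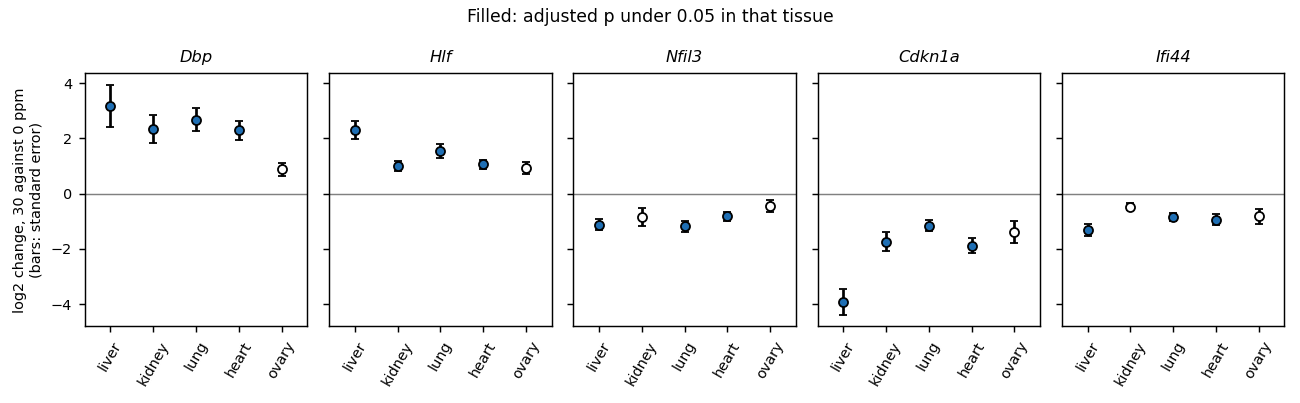
Log2 change at 30 against 0 ppm (points) with its standard error (bars) for Dbp, Hlf, Nfil3, Cdkn1a and Ifi44 in 5 tissues of the study animals; filled points have an adjusted p under 0.05 in that tissue. Dbp and Hlf lie above 0, and Nfil3, Cdkn1a and Ifi44 below 0, in every tissue, and all 5 ovary points are open.

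Because Dbp differed so widely between the groups, the calls were recomputed with each liver's Dbp level as a covariate. The count fell to 229 probes (8.81%), 102 of them higher, of which 157 were among the 304. All 7 glutathione transferase probes and 17 of the 20 CAR and PXR target probes stayed higher in that fit. Most of these glutathione transferase probes count in both lists. Gsta1 was at a log2 change of 2.50 (adjusted p = 5.43e-05). Cdkn1a stayed lower at -2.81 (adjusted p = 9.56e-06) and Cyp2a5 higher at 1.44 (adjusted p = 0.00517). Of the 55 called genes with printed values, 13 lost their calls. Among them were Alas1 (0.81, adjusted p = 0.329), Inmt (0.57, adjusted p = 0.0632), Cry1 (-0.51, adjusted p = 0.224) and Cyp2e1 (0.18, adjusted p = 0.583). So did Nqo1 (0.50, adjusted p = 0.0997), Cyp2c54 (0.46, adjusted p = 0.0754) and Cyp2f2 (0.25, adjusted p = 0.119). The rest were Bhlhe40, Isg15, Fgg, Fgf21, Gadd45g and Egfr.

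Interferon-stimulated genes were lower as a group: 19 of 29 probes fell, none rose, and the median log2 change was -0.87. Ifi44, an interferon-induced gene, was at 22, 37.3 and 60.8 CPM at the lowest, median and highest control and at 15.5, 13.4, 16.3, 18.3 and 11.5 CPM in the exposed animals. No exposed animal reached the lowest control, and the log2 change was -1.32 ± 0.21 (edgeR adjusted p = 1.12e-05). Isg15, the ubiquitin-like modifier with 3 motif matches in the promoter printed above, was at 85.4, 77.8, 88.5, 79.6 and 67 CPM against 119.7 to 203 CPM, a log2 change of -1.03 ± 0.20 (adjusted p = 0.000199).

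Signalling genes of the same pathway fell too. Herc6, the ligase that attaches Isg15, had a log2 change of -0.58 ± 0.11 with no overlap. Irf7, which drives interferon genes, was at -0.97 ± 0.21 (edgeR adjusted p = 0.000969), and the chemokine Cxcl10 at -1.26 ± 0.31 (adjusted p = 0.00381). In other tissues, Ifi44 fell by 0.85 ± 0.15 in lung and 0.95 ± 0.19 in heart on the log2 scale. Without control animal 4, 16 interferon probes were lower, and Ifi44 stayed at -1.20 (adjusted p = 2.51e-05). With Dbp as a covariate the count was 7, Ifi44 was at -1.11 (adjusted p = 0.00153) and Isg15 at -0.51 (adjusted p = 0.0722). With both changes together, chosen after the data were seen, 1 interferon probe was called lower.

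Antigen presentation and macrophage genes fell in the same animals. Cd74, the invariant chain of MHC class II, was at 279, 300.5, 354, 365 and 393 CPM against 492 to 1783 CPM in the controls, a log2 change of -1.19 ± 0.24 (edgeR adjusted p = 0.000597). H2-aa, a class II alpha chain, was at 17.3 to 28.7 CPM against 33.1 to 104 CPM, a log2 change of -1.20 ± 0.26, and H2-T23, a nonclassical class I gene, at -0.40 ± 0.09. Ctss, the protease cathepsin S that trims Cd74, was at 56.8, 76.3, 61.3, 64.3 and 63.8 CPM against 96.3 to 359 CPM, a log2 change of -1.08 ± 0.23 (adjusted p = 0.00101).

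The macrophage complement genes C1qa (-0.87 ± 0.20), C1qb (-0.74 ± 0.19) and C1qc (-0.80 ± 0.21) had like log2 changes. All 15 probes of the Kupffer cell and macrophage list had a log2 change below 0, with 6 called, and they summed to 1150 to 3627 CPM in the controls and 1013 to 1224 CPM at 30 ppm. Their part in the interferon result was not tested. Control animal 4 held the highest value of each gene named in this paragraph and the one before it. Without it the log2 change of Cd74 was -0.92 (edgeR adjusted p = 0.00191), of Ctss -0.74 (adjusted p = 0.00281), of C1qa -0.56 (adjusted p = 0.00566), of C1qb -0.44 (adjusted p = 0.0179) and of C1qc -0.50 (adjusted p = 0.0255), and 4 macrophage probes stayed lower. In the fit of the 14 libraries alone, 1 macrophage probe was called.

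**Figure D4:**
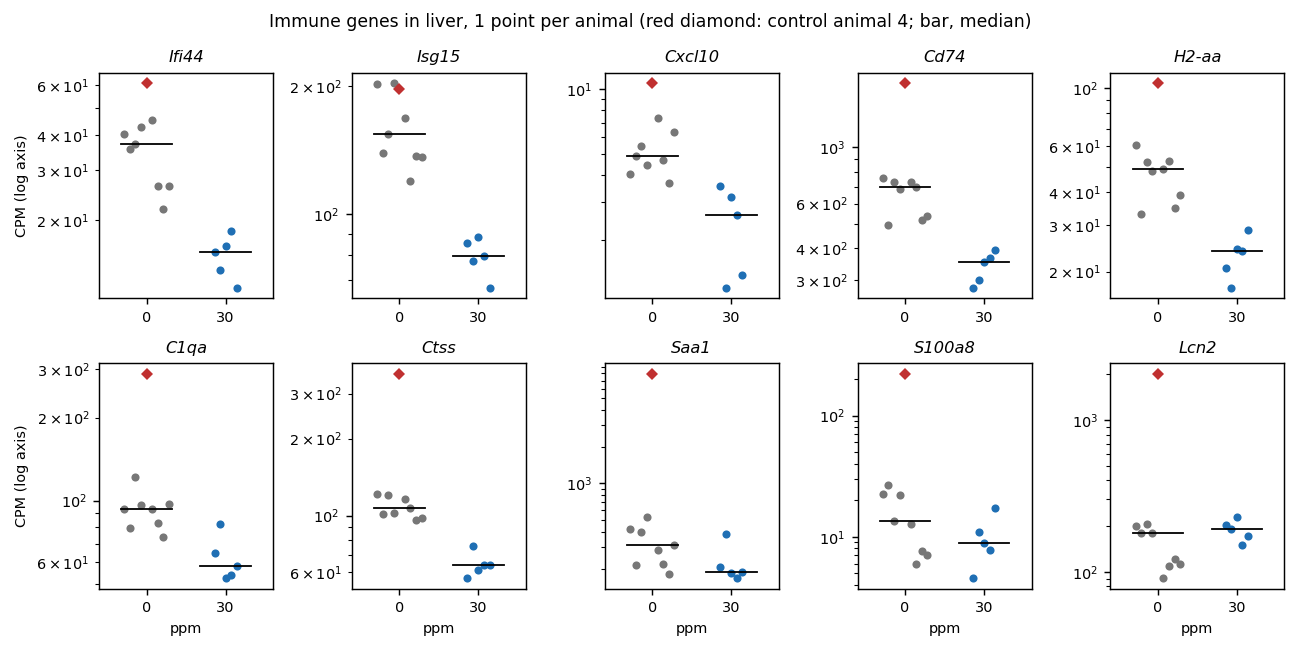
CPM (log axis) of 10 immune genes in each liver at 0 and 30 ppm; each point is 1 animal, bars are medians and the red diamond is control animal 4. Ifi44, Isg15, Cxcl10, Cd74, H2-aa and Ctss at 30 ppm lie below all 9 controls, while Saa1, S100a8 and Lcn2 at 30 ppm lie among the other 8 controls, apart from the low end of Saa1 and S100a8.

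The calls of the acute phase genes Saa1 and Saa2 and of the neutrophil gene S100a8 were lost without control animal 4, and the acute phase count shrank. Of 45 acute phase and inflammation probes 11 were lower and 1 higher, and without that animal 5 were lower (6 without exposed animal 301, and 7 without 304 or 305). Saa1, a serum amyloid made by hepatocytes in inflammation, was at 205, 388, 183, 166 and 188 CPM at 30 ppm, against a control median of 313 CPM, and Saa2 at 47.7 to 140.7 CPM against a median of 154.7 CPM. The fitted log2 changes of -2.37 ± 0.66 and -2.96 ± 0.71 became -0.50 (edgeR adjusted p = 0.511) and -0.83 (adjusted p = 0.21) without it. S100a8, a neutrophil calgranulin, went from -1.95 ± 0.57 to -0.58 (adjusted p = 0.4; without exposed animal 301, 0.0589), and Lcn2 from -0.92 ± 0.46 to 0.34 (adjusted p = 0.518), neither value of Lcn2 being called.

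Fibrinogen gamma, Fgg, had a log2 change of -0.52 ± 0.14 (edgeR adjusted p = 0.0085; without exposed animal 305, 0.0514). Il1b, the cytokine interleukin 1 beta, had one of -1.69 ± 0.42 (adjusted p = 0.00456), which became -1.08 (adjusted p = 0.0342) without control animal 4. Other immune lists were thin. None of 9 T and NK cell probes was called, at summed levels of 2.51 to 6.92 CPM in controls and 1.19 to 4.18 CPM at 30 ppm, and 1 of 6 B cell probes was lower. No red cell probe was called: Hba-a1, hemoglobin alpha, had a log2 change of -0.82 ± 0.45 (adjusted p = 0.263), and the 6 probes summed to 5379 to 19760 and 5495 to 10320 CPM.

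Of 73 cell cycle probes 1 was called at 30 ppm, Tk1, the thymidine kinase, at 120.2, 61.9, 197, 225 and 285 CPM against 29.3 to 71.6 CPM in the controls, a log2 change of 1.90 ± 0.30 (edgeR adjusted p = 1.09e-05). Its lowest animal was 302, as for Dbp. The median log2 change of the cell cycle list was -0.29, and Rrm2, the ribonucleotide reductase subunit of S phase, was at 5.63, 3.99, 4.18, 5.05 and 8.12 CPM against 5.55 to 10.6 CPM (log2 change -0.63 ± 0.28, adjusted p = 0.14). The tumour and fetal marker Afp (0.13 ± 0.37) and metallothionein Mt1 (0.07 ± 0.17) did not pass, nor did Mup19, a major urinary protein (-0.35 ± 0.18).

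Stress genes of the endoplasmic reticulum were lower. On the integrated stress and unfolded protein list 7 of 23 probes fell and none rose. Creld2, a chaperone-like secretory protein, was at 6.21, 3.55, 2.27, 3.81 and 2.41 CPM against 4.85 to 18.5 CPM, a log2 change of -1.55 ± 0.33 (edgeR adjusted p = 0.000964). Fgf21, a fasting hormone of the liver, was at 0.18 to 1.58 CPM against 1.25 to 4.72 CPM, a log2 change of -1.85 ± 0.63 (adjusted p = 0.0412). It lost its call without control animal 3, 7, 8 or 10 or exposed animal 301, 303, 304 or 305 (adjusted p 0.0507 to 0.137). The count was 2 to 8 when single animals were left out. It was 2 without control animal 10 and without exposed animal 301 or 305. It was 3 without control animal 4 or 7 or exposed animal 303 or 304, and 4 without control animal 8.

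The log2 changes between 30 ppm and the neighbouring concentrations involve no control animal, although the controls share in the fit's estimate of spread. Between 30 and 10 ppm, 2 of 2601 probes (0.0769%) were called, both higher at 30 ppm, and 89 had an unadjusted p under 0.05. Gsta1, at 26.1 to 58.9 CPM in the 4 animals at 10 ppm, was higher by 2.23 on the log2 scale (edgeR adjusted p = 0.00702), and Gm3776, at 30.3 to 59.4 CPM, by 1.94 (adjusted p = 0.0101). At 10 ppm both lay near the control range, with log2 changes from 0 ppm of 0.49 and 0.46. The 10 ppm group has 4 animals, and without animal 201 or 204 of that group neither probe was called (adjusted p = 0.0554 and 0.161 for Gsta1), while Gm3776 was also not called without animal 202 or 303. With the set-aside libraries added, no probe was called.

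The contrasts with 0 ppm share the control animals, so their values are given side by side. The log2 changes at 10 and 30 ppm were 3.26 and 3.18 for Dbp, -4.22 and -3.93 for Cdkn1a, 1.04 and 1.04 for Por, 1.98 and 1.66 for Alas1, 1.53 and 1.56 for Cyp7a1, and 0.35 and 0.87 for Ces2c, genes chosen after their values were seen. The median log2 change of the glutathione transferase list was 0.46 and 1.05, and that of the NRF2 list 0.13 and 0.16. None of these 6 genes differed between the 2 concentrations in the direct test (edgeR adjusted p = 1 each), which does not show that they were equal.

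Between 100 and 30 ppm, 162 probes (6.23%) differed, 25 lower (0.961%) and the rest higher (5.27%). Cell cycle genes made up a large part, with 43 of 73 probes higher at 100 ppm and none lower. Rrm2 was higher by 2.06 on the log2 scale (edgeR adjusted p = 5.57e-06), and Cdkn1a by 2.67 (adjusted p = 5.02e-05). Gsta1 rose further by 2.69 (adjusted p = 3.67e-06), Gstm3 by 0.99 (adjusted p = 0.00128) and Cbr3 by 1.25 (adjusted p = 1.16e-05).

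Of the 159 probes higher at 30 ppm than at 0 ppm, 8 were lower at 100 than at 30 ppm, and 8 were higher still. Both contrasts use the same 5 animals at 30 ppm, so values high there by chance favour a fall at 100 ppm. The calls of Alas1 and Cyp2e1 against 0 ppm also depended on single animals, as given above. Alas1 differed by -2.04 (edgeR adjusted p = 0.00445), Por by -0.56 (adjusted p = 0.00581), Inmt by -0.75 (adjusted p = 0.031) and Cyp2e1 by -0.60 (adjusted p = 0.0129). Mup19, not called at 30 ppm, was lower at 100 ppm by -1.47 (adjusted p = 3.13e-06). The glutamate transporter Slc1a2, a pericentral marker, differed by -0.76 (adjusted p = 0.0403), after a change of 0.40 ± 0.21 from 0 to 30 ppm (adjusted p = 0.228).

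**Figure D5:**
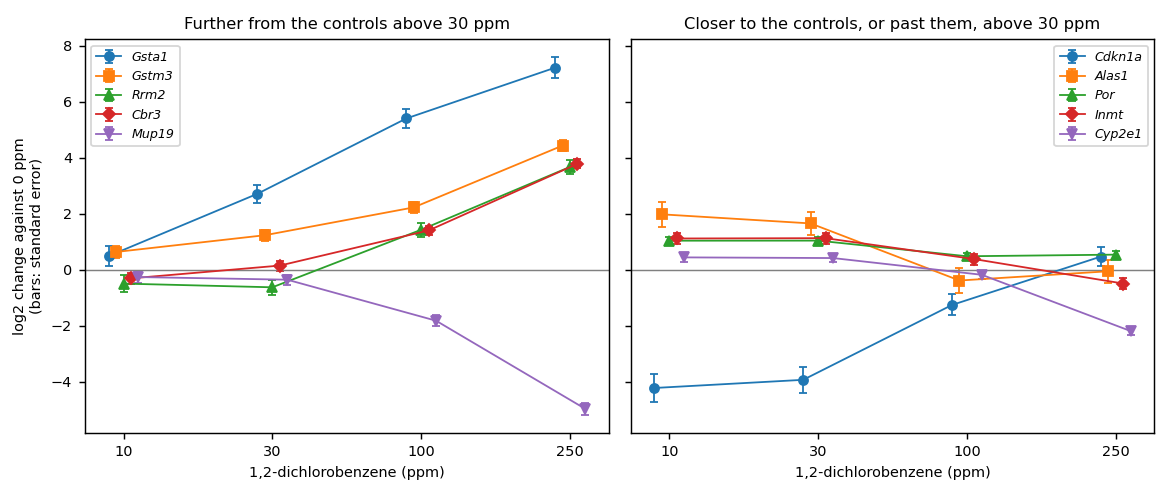
Log2 change against 0 ppm (points) with its standard error (bars) at 10, 30, 100 and 250 ppm for 10 genes chosen after their values were seen, to show each course. On the left Gsta1 passes from 0.49 at 10 ppm through 2.72 at 30 ppm to 5.40 at 100 ppm while at 30 ppm Cbr3 is at 0.15, Mup19 at -0.35 and Rrm2 at -0.63, none of them called; on the right Cdkn1a goes from -3.93 at 30 ppm to -1.26 at 100 ppm and 0.47 at 250 ppm.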

How the data were processed

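The deposited table holds, per the file headers and the labels, TempO-Seq probe counts for the mouse S1500+ panel, 3154 probes in 360 libraries; the submitters' processing notes name Bowtie 1.3.1, and the build is not given in the sources used here. The authors' counts carry an attenuation adjustment: 59 probes, 17 of them among the called, hold only multiples of a factor of 2 to 21, so their true depth is lower. All 61 used liver libraries of both dichlorobenzenes (12 groups) entered 1 edgeR 4.0.16 quasi-likelihood fit (R 4.3.3) on the counts, with TMM scaling, filterByExpr and Benjamini-Hochberg adjustment over 2601 probes; probes under an adjusted p of 0.05 were called. DESeq2 1.42.0 served as an alternative, and the procedure was checked on simulated data. CPM were computed from the counts after TMM scaling, except that those given for the set-aside libraries were scaled to total counts only. Each other tissue was fitted likewise, except that 2 ovary libraries at 1 and 250 ppm were not used; with them the ovary also had no called probe at 30 ppm. No within-group pair of 46 was identical (chi-square per degree of freedom at least 31.3). The genes named were the 12 largest rises and 12 largest falls with a mean of at least 20 counts, up to 5 members of each of 37 gene lists, up to 5 probes each way in the direct comparisons, and a fixed set of 29 genes, each by its probe of smallest p; values are printed for 68 genes, a selection made after their values were seen, and some genes are not reported here. Members and lists were chosen with earlier results of these data known. No list was given a test.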

Additional observations from a re-analysis of the deposited data

Results flagged for a closer look

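For each printed gene in each of the 2 liver groups, the highest and lowest animal were set against the rest of the group by Dixon's criterion at its 95% level. One animal stood apart in 26 pairs, and chance gives about 1 in 20. Control animal 4 accounted for 18 of them. It was the highest control for Cyp3a16 (15.16 CPM), Herc6 (139.4 CPM), Irf7 (73.71 CPM), Cd74 (1783 CPM), H2-aa (103.9 CPM), H2-T23 (382.1 CPM), Saa1 (7972 CPM), Saa2 (4469 CPM) and S100a8 (221.8 CPM). The same held for Il1b (33.14 CPM), Lcn2 (2022 CPM), Fgg (36770 CPM), Ctss (359.1 CPM), C1qa (288.2 CPM), C1qb (342 CPM) and C1qc (190.8 CPM). It was the lowest control for Gclc (77.43 CPM) and Ndufa9 (663.6 CPM). Control animal 6 was the highest for Gadd45g at 41.1 CPM.

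At 30 ppm, animal 303 was the highest for Gstm2 (475.2 CPM), and animal 305 for Gstm3 (115.3 CPM) and Alas1 (21.65 CPM). Animal 304 was the highest for Cyp2c54 (4622 CPM) and the lowest for C1qc (36.47 CPM). Animal 302 was the highest for Saa1 (387.9 CPM) and the lowest for Abcc4 (0.2535 CPM).

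In 5 of 76 pairs of a gene and another tissue, every exposed animal lay on the opposite side of its tissue's control mean from the exposed livers. The log2 change of Cry1 was 0.815 in kidney and 0.235 in ovary, and in ovary that of Gsta1 was -1.51, of Nqo1 -0.158 and of Alas1 -1.44. With 3 exposed animals in kidney and 5 in each other tissue, some such pairs arise by chance, and their expected number was not computed. In ovary 0 of 2729 probes were called at 30 ppm. These differences between tissues were not tested.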

How the results depend on the processing

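Of the 55 genes with values called at 30 ppm, 24 kept their call in every planned setting. The Dbp covariate counts among these settings, although it was run because Dbp differed so widely between the groups. With the set-aside libraries added 21 genes lost their call, and with Dbp as a covariate 13. In the fit of the 2 groups alone 11 lost it, and in the fit of 1,2-dichlorobenzene livers alone 5. With the set-aside libraries, 106 probes were called, 39 higher and 67 lower, so 36.8% of calls were higher against 52.3%; none was called between 30 and 10 ppm (0), and 3 were lower at 100 than at 30 ppm. With the Dbp covariate 102 were higher. With that covariate and no control animal 4, chosen after the data were seen, 120 were called, 64 higher and 56 lower. Leaving out 1 animal gave 211 to 333 calls, 112 to 181 higher and 96 (without exposed animal 305) to 157 lower; for 30 against 10 ppm it gave 0 to 3, with 1 call without animal 202 or 303. Log2 changes turned sign for Gm3776 at 30 against 10 ppm (-0.58, set-aside libraries), Gclc (0.030) and Bhlhe40 (-0.18) with the Dbp covariate, Lcn2 (0.34 without control animal 4, down to -1.05), Afp (-0.18 without 301, up to 0.36) and Mt1 (-0.044 without 302, up to 0.15). With the covariate and no control animal 4, they were -0.39 for Bhlhe40, 0.32 for S100a8 and 0.086 for Lcn2. The cause was not tested. No paired analysis was possible because the animals of the compared groups share no number. Counts of attenuated probes carry more counting error than their size shows.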

Other observations

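Of 22 mitochondrial respiration probes 6 were higher and none lower, among them Ndufa9, a complex I subunit, at 928, 830.2, 944, 909.6 and 928 CPM against 664 to 811 CPM (log2 change 0.25 ± 0.05, edgeR adjusted p = 0.000551). That count was 3 without control animal 4, and 2 to 8 over all animals left out in turn (2 without exposed animal 304, 3 without 305, 4 without 301). Egfr, the EGF receptor, had a log2 change of -0.74 ± 0.25 (adjusted p = 0.0397), which was not called without control animal 2, 4, 7 or 10 or exposed animal 301, 303, 304 or 305 (adjusted p 0.0615 to 0.174). Gadd45g, a growth arrest gene, had one of -1.46 ± 0.46 (adjusted p = 0.0255), not called without control animal 6 or exposed animal 301, 303 or 304 (0.0658 to 0.0861).

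The submitters set aside 11 liver libraries, 9 of them for depth, with 94125 to 132046 counts. Those 9 shallow libraries come from both dichlorobenzenes and from concentrations of 0 to 250 ppm. In them Gsta1 lay between 63.7 and 2295 CPM and Gm3776 between 552.5 and 2181 CPM, scaled to total counts without TMM. No used control exceeded 49.9 CPM for Gsta1 or 48.6 CPM for Gm3776 after TMM scaling. These are values of libraries outside the comparison.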
